A study of Rattus norvegicus with 6 samples.

Results

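The aquaporins of the rat inner medulla were described with 13 probe sets of 10 genes (Aqp1 to Aqp9 and Aqp11), taken from a table of 31099 probe sets. They are all probe sets that the platform annotation pairs with 1 of these symbols and no other. Aqp4 had 3 probe sets, Aqp1 had 2 and the other 8 genes had 1 each. Aquaporins are membrane channels for water, and Aqp3, Aqp7 and Aqp9 also pass glycerol. In the collecting duct vasopressin moves vesicles that carry Aqp2 to the apical membrane, where water enters the cell, and Aqp3 and Aqp4 let it out across the basolateral membrane. Aqp1 is the constitutive channel of the proximal tubule, the descending thin limb of Henle and the descending vasa recta, the vessels that carry blood into the medulla.

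The IMCD group (3 arrays) held RNA from collecting duct cells of the inner medulla, enriched by low-speed spins, and the nonIMCD group (3 arrays) held RNA of the cells that stayed in the supernatant of that step. All were prepared from male Sprague-Dawley rats given 1 mg of furosemide, a loop diuretic, into the peritoneum 30 min before decapitation, and the tissue of both groups was digested with collagenase B and hyaluronidase for 75 min at 37 °C. The rats of IMCD replicate 1 were labelled as 6 weeks old, and those of the remaining 5 arrays as 10 weeks old. Per the labels 7 rats were used in 3 isolations. Which rats gave each array was not stated, nor which IMCD and nonIMCD arrays came from 1 isolation, so the p-values measure only the spread between arrays, which may be partly technical. Both fractions are mixtures, in which fewer cells of a type and less RNA per cell cannot be told apart.

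The fractions stood apart as their names say. Of 12 collecting duct principal cell markers, a list without aquaporins, 11 were higher in IMCD and 1 did not pass, with a median log2 difference of 1.53. Their summed intensity was 93047 to 104090 in IMCD and 36522 to 45797 in nonIMCD, so nonIMCD kept part of this signal. Fxyd4, the brightest of them, had means of 42903 in IMCD and 24109 in nonIMCD. All 11 measured endothelial markers were lower, and 12 of 13 leukocyte markers were lower. The median array intensity was 270.3 to 273.4 in IMCD and 330.1 to 341.4 in nonIMCD, and over all probe sets the median log2 difference was -0.10. Control transcripts had more 3' than 5' signal in both fractions, by a wider margin in nonIMCD. The mean log2 ratio over Actb, Gapdh and hexokinase was 0.67 to 0.72 for IMCD, against 1.22 to 1.50 for nonIMCD. This measure of RNA integrity moved with every difference between the fractions given here, and its part in them was not tested.

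Of the 13 probe sets, 3 were higher in IMCD (both brighter Aqp4 sets and Aqp3), 2 were lower (both of Aqp1) and 8 did not pass. Among all 31042 probe sets tested, 8.58% were higher and 13.4% lower by the same rule, an adjusted p under 0.05 in limma. That split of 2663 higher and 4163 lower became 5389 and 2652 under median centring and 3443 and 3171 under quantile normalization. The median log2 difference of the 13 was 0.33. On 4 of them every IMCD array lay above every nonIMCD array, against 17.3% of all probe sets, and on 3 every IMCD array lay below, against 24.9%. The 13 were also set against the negative controls. The 7 probe sets of Aqp1, Aqp2, Aqp3 and Aqp4 lay above the highest negative control (78.4) on all 6 arrays, and the 6 of Aqp5, Aqp6, Aqp7, Aqp8, Aqp9 and Aqp11 each lay under it on at least 1. That limit comes from 3 probe sets for a bacterial transcript whose signal ran from 1.55 to 78.4, so it is a rough one.

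**Figure D1:**
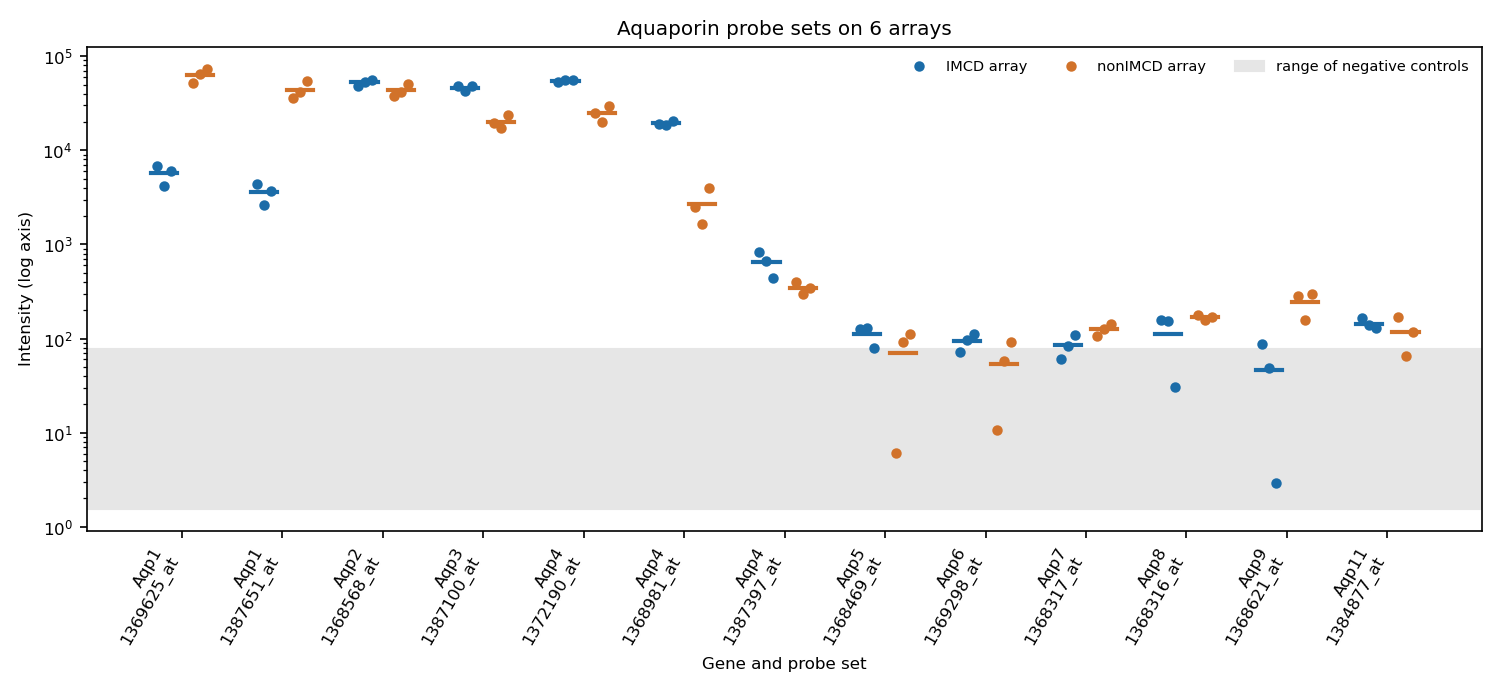
Deposited intensity (log axis) of each aquaporin probe set on the 3 IMCD arrays (blue, left of each pair) and the 3 nonIMCD arrays (orange, right), with the mean of each fraction as a bar and the range of the negative controls in grey. The Aqp1 sets are dimmer on all IMCD arrays, the Aqp3 and Aqp4 sets are brighter on the IMCD arrays, and the 6 probe sets on the right lie in or near the grey band.

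The promoters of the 4 bright genes are shown because Aqp3 and Aqp4 were higher together, Aqp1 moved the other way and Aqp2 differed least. Each is 300 bases of the GRCr8 assembly from RefSeq, whose table held 9 of the 10 genes, 250 before the annotated start and 50 from it on, written 5′ to 3′ on the gene's strand. Aqp1 lies at chr4:85812534-85812833 (plus strand), Aqp2 at chr7:132590036-132590335 (plus) and Aqp3 at chr5:61040634-61040933 (minus). Aqp4 has an upstream start, chr18:6798793-6799092 (minus), and a downstream one, chr18:6797877-6798176 (minus). Capitals mark matches, on either strand, to 5 short motifs. TATAAA is the TATA box. CGTCA is the half-site of the cAMP response element. TGGAAA is the core that NFAT factors bind. AGATAA is a site of GATA factors. CACGTG is an E-box.
Aqp1: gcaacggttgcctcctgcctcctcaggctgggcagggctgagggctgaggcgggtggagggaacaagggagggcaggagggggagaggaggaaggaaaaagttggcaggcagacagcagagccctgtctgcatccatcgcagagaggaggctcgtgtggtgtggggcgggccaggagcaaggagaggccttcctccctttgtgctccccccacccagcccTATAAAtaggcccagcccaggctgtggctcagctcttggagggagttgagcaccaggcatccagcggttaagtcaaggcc
Aqp2: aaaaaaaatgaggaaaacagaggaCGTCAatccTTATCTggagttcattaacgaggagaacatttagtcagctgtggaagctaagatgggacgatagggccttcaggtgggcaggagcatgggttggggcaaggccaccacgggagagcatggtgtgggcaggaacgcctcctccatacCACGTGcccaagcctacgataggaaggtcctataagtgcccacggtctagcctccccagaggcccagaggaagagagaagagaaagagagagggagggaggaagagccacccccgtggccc
Aqp3: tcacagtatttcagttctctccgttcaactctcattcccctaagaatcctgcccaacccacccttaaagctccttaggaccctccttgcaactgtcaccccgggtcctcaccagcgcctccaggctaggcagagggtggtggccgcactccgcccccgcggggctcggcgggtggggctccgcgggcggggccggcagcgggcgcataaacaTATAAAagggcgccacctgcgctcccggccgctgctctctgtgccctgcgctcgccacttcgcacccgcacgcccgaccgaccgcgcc
Aqp4 upstream start: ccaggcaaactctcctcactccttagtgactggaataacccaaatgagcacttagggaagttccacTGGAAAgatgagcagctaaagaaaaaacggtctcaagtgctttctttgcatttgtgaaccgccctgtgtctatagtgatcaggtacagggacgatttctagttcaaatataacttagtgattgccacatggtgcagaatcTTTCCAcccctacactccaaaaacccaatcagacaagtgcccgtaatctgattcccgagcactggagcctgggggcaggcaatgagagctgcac
Aqp4 downstream start: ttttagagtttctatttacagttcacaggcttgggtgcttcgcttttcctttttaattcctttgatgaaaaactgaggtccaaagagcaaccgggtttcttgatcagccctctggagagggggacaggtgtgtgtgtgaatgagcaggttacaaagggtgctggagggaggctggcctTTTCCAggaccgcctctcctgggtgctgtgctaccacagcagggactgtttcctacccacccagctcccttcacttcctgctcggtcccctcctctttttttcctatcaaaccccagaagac

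The letters TATAAA stood from 30 to 25 bases before the Aqp1 start and from 38 to 33 before the Aqp3 start. They occur in 14.2% of the 33469 promoter windows of the table. In the Aqp2 window CGTCA stood from 226 to 222 bases before the start, AGATAA on the opposite strand from 217 to 212, and CACGTG from 71 to 66. These occur in 21.2%, 11.6% and 6.42% of all windows. The upstream Aqp4 window held TGGAAA on each strand and the downstream one held it once, against 22.7% of all windows with at least 1 match. No matches overlapped. Aqp3 and Aqp4 shared none of the 5 motifs in these windows. Matches of this kind describe the letters only. Neither binding at them nor a part of them in the fraction differences was tested.

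The apical channel Aqp2 is inserted into the membrane on vasopressin signaling, and its amount sets the water permeability of the duct. Probe set 1368568_at had intensities of 47833, 53804 and 56085 on the IMCD arrays and 37998, 41265 and 50634 on the nonIMCD arrays. The fractions overlapped, since nonIMCD replicate 3 exceeded IMCD replicate 1. The log2 difference was 0.29 ± 0.16 (SE, limma adjusted p = 0.261), and its 95% interval ran from a 0.93-fold to a 1.60-fold IMCD level. The value depends on the scaling: median centring gave 0.58 (limma adjusted p = 0.0403) and quantile normalization 0.45 (limma adjusted p = 0.0406).

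Aqp2 was among the brightest signals in both fractions. Among 31042 probe sets it ranked between 22 and 31 on the IMCD arrays and between 66 and 84 on the nonIMCD arrays. The top signal of an array was 70016 to 111657. Whether signals this bright are compressed was not tested.

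Aqp3, the basolateral channel whose loss in mice gives a severe urinary concentrating defect, was higher in IMCD. Probe set 1387100_at had 47855, 42599 and 48753 on the IMCD arrays and 19518, 17388 and 23742 on the nonIMCD arrays. Every IMCD array lay above every nonIMCD array. The log2 difference was 1.21 ± 0.16 (SE, limma adjusted p = 0.00484), a 2.31-fold level in IMCD. Over 13 alternative settings it ran from 1.10 to 1.50 and stayed called.

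Aqp4, the other basolateral channel, known in the kidney mainly from the inner medullary duct, had higher means in IMCD on all 3 probe sets, and 2 of them passed. The brightest, 1372190_at, had 52890, 55185 and 55884 on the IMCD arrays and 24629, 19790 and 29605 on the nonIMCD arrays. The next, 1368981_at, had 19168, 18633 and 20436 on the IMCD arrays and 2527, 1650 and 3944 on the nonIMCD arrays. Neither set overlapped between fractions, and the second was further apart: its log2 difference was 2.92 ± 0.32 (SE, limma adjusted p = 0.00245), against 1.17 ± 0.18 (SE, limma adjusted p = 0.00762) for the brightest. These are a 7.58-fold and a 2.24-fold level.

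The third Aqp4 probe set, 1387397_at, was dim. It had 832, 673 and 436 on the IMCD arrays and 399, 295 and 345 on the nonIMCD arrays, which did not overlap. Its difference of 0.83 ± 0.27 (SE, limma adjusted p = 0.0773) did not pass. It passed with IMCD replicate 3 left out (1.09, limma adjusted p = 0.0290), under median centring (1.12, 0.0302) and quantile normalization (1.07, 0.0355), and with dim probe sets left out (0.0328) or an intensity trend (0.0257).

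Within an array, the middle Aqp4 probe set differed from the brightest by -1.57 to -1.45 log2 units in IMCD and by -3.57 to -2.90 in nonIMCD. On these arrays the shifts of the 2 probe sets were 1.76 apart on the log2 scale (exact permutation test, two-sided p = 0.1, the smallest that 3 against 3 arrays allow). The third and the brightest shifted by amounts 0.33 apart (exact permutation test p = 0.5). These comparisons of probe sets of 1 gene were chosen after the values were seen. The part of the transcript that each probe set covers was not analysed here. The parts of the 3' to 5' difference and of compression of bright signals in the gap of 1.76 were not tested.

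Aqp1 was lower in IMCD on both probe sets. The brighter, 1369625_at, had 6810, 4197 and 6087 on the IMCD arrays and 52454, 64021 and 73109 on the nonIMCD arrays. The dimmer, 1387651_at, had 4421, 2608 and 3671 on the IMCD arrays and 35718, 41618 and 54267 on the nonIMCD arrays. On both sets IMCD replicate 2 was lowest and nonIMCD replicate 3 highest, and the fractions lay far apart.

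The log2 differences of the Aqp1 sets were -3.48 ± 0.24 (SE, limma adjusted p = 0.000584) and -3.63 ± 0.26 (SE, limma adjusted p = 0.000687), levels 11.2-fold and 12.3-fold lower in IMCD. The 95% intervals ran from -4.06 to -2.90 and from -4.26 to -2.99. Over all settings tried the values ran from -3.63 to -3.20 and from -3.80 to -3.34. In nonIMCD the brighter set ranked between 15 and 20 of all probe sets, and in IMCD between 1382 and 2380.

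Among markers of cells known to carry Aqp1, those of endothelium were all lower, those of the thin limb mostly lower, and most of the proximal tubule did not pass. Of 6 measured thin limb markers 4 were lower in IMCD and 2 did not pass, with a median difference of -2.53. Their summed intensity was 76026 to 82764 in IMCD and 90383 to 110884 in nonIMCD. Slc14a2 and Cryab, the ones that did not pass, carried most of that sum. Slc14a2 (0.33), which also marks the collecting duct, had its IMCD arrays above, and Cryab (-0.50, limma adjusted p = 0.0502) had them below. Epha7 and Cldn2 lay under the highest negative control on all IMCD arrays. The 11 endothelial markers summed to 15475 to 19510 in IMCD and 75714 to 80858 in nonIMCD, and none was under that limit in either fraction. Slc14a1, the urea transporter of the descending vasa recta, had 1200, 713 and 1074 in IMCD and 14440, 15775 and 17807 in nonIMCD, a difference of -4.01 ± 0.23 (SE, limma adjusted p = 0.000399).

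Red cells also carry Aqp1. Of 5 measured erythroid markers 3 were lower in IMCD and 2 did not pass, and their sum was 5623 to 10074 in IMCD and 31244 to 90939 in nonIMCD. Slc4a1, which did not pass (0.91) and also marks intercalated cells, carried most of the IMCD sum, with 4827, 3513 and 6963 in IMCD and 1589, 2997 and 3688 in nonIMCD. Hbb, the hemoglobin beta chain, was lower, with 650, 2282 and 2848 in IMCD and 28646, 63063 and 80473 in nonIMCD. Ahsp and Epb42 lay under the limit on all IMCD arrays. Of 11 proximal tubule markers 2 were lower and 9 did not pass, with a sum of 1914 to 2241 in IMCD and 5079 to 6089 in nonIMCD. The lower ones were Lrp2, with means of 322 in IMCD and 3429 in nonIMCD, and Gatm, with 142 and 909. Lrp2 carried most of the nonIMCD sum. The 9 others went in both directions, and the brightest of them, Slc7a13, had means of 1101 in IMCD and 826 in nonIMCD. Cubn, Slc5a2 and Slc5a12 were under the limit on all IMCD arrays, and Slc5a2, Slc5a12 and Slc22a6 on all nonIMCD arrays. The part of each cell type in the Aqp1 difference was not tested.

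**Figure D2:**
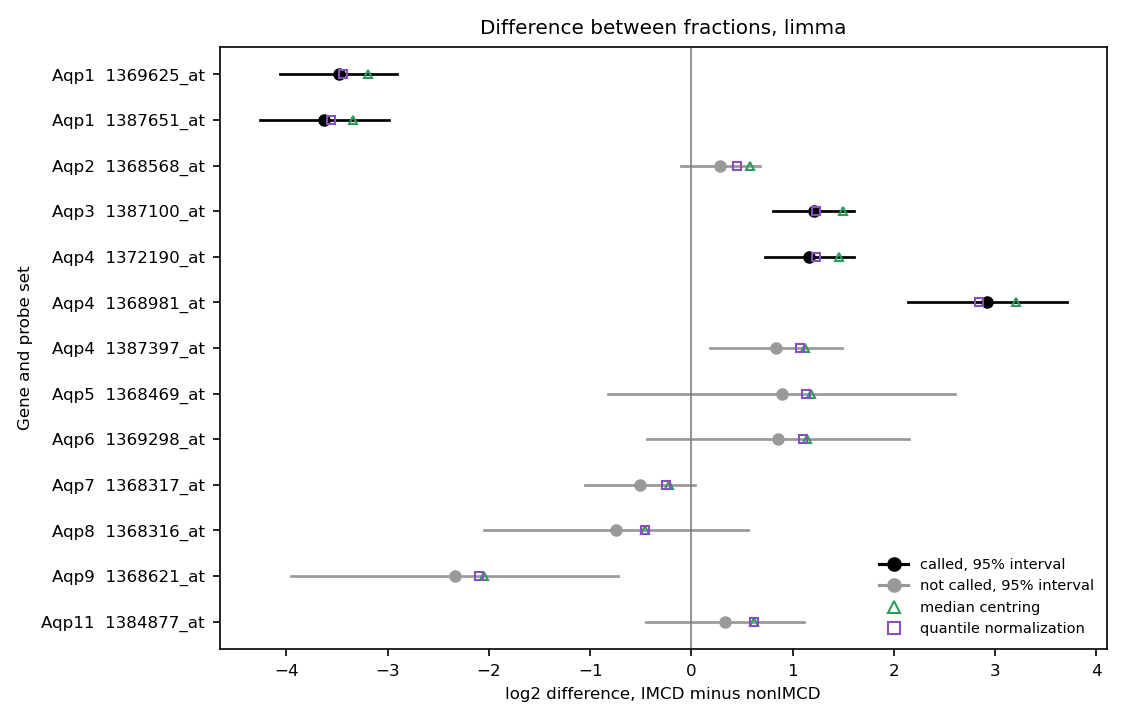
The log2 difference (IMCD minus nonIMCD) of each aquaporin probe set with its 95% interval from limma, in black where the adjusted p was under 0.05 and in grey otherwise, with triangles for median centring and squares for quantile normalization. Both Aqp1 sets lie between -3.63 and -3.20 at every marker, Aqp3 and the brighter Aqp4 sets lie above 1, and the Aqp2 interval reaches from -0.10 to 0.68.

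On these arrays the shifts of Aqp1, Aqp3 and Aqp4 differed from that of Aqp2. A difference between 2 genes on the same array is hardly moved by a common scaling of that array, so its change between fractions shows unequal shifts. Aqp3 minus Aqp2 was 0.00, -0.34 and -0.20 on the IMCD arrays and -0.96, -1.25 and -1.09 on the nonIMCD arrays. The fractions did not overlap, and Aqp3 relative to Aqp2 was 0.92 higher in IMCD. Aqp4 minus Aqp2 was 0.06 ± 0.08 in IMCD, against -0.82 ± 0.22 in nonIMCD (SD, n = 3), a change of 0.88. With the mean of all 3 Aqp4 sets that change was 1.35.

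Aqp1 minus Aqp2 was -3.23 ± 0.43 in IMCD, against 0.54 ± 0.08 in nonIMCD (SD, n = 3), a change of -3.77. Each of these 3 pairs had p = 0.1 by an exact two-sided permutation test, the smallest possible for 3 against 3, and 0.2 after Benjamini-Hochberg adjustment over the 6 pairs compared. Aqp6 and Aqp11 relative to Aqp2 changed by 0.57 and 0.04 (exact permutation p = 0.4 and 0.9, adjusted 0.6 and 0.9), both with overlap. Between the basolateral channels the mean shift differed little on these probe sets. Aqp3 minus Aqp4 was -0.24 ± 0.12 in IMCD, against -0.28 ± 0.08 in nonIMCD (SD, n = 3), a change of 0.04 (exact permutation p = 0.8, adjusted 0.9). That small change holds for the brightest Aqp4 probe set: with the mean of all 3 Aqp4 sets the change was -0.43 (exact permutation p = 0.1).

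Set against the principal cell markers, Aqp2 also shifted less. Aqp2 minus the mean log2 value of the 12 markers was 3.72, 3.67 and 3.88 on the IMCD arrays and 4.99, 5.06 and 5.07 on the nonIMCD arrays, a change of -1.28. Aqp3 and Aqp4 changed by -0.36 and -0.40 on this measure, also without overlap between fractions. Each of the 3 had p = 0.1 by the exact permutation test, and this measure was chosen after the values were seen. All 12 markers had lower means than Aqp2 in both fractions, and the brightest of them, Fxyd4, differed by 0.84. The part of compression of bright signals in these changes was not tested.

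**Figure D3:**
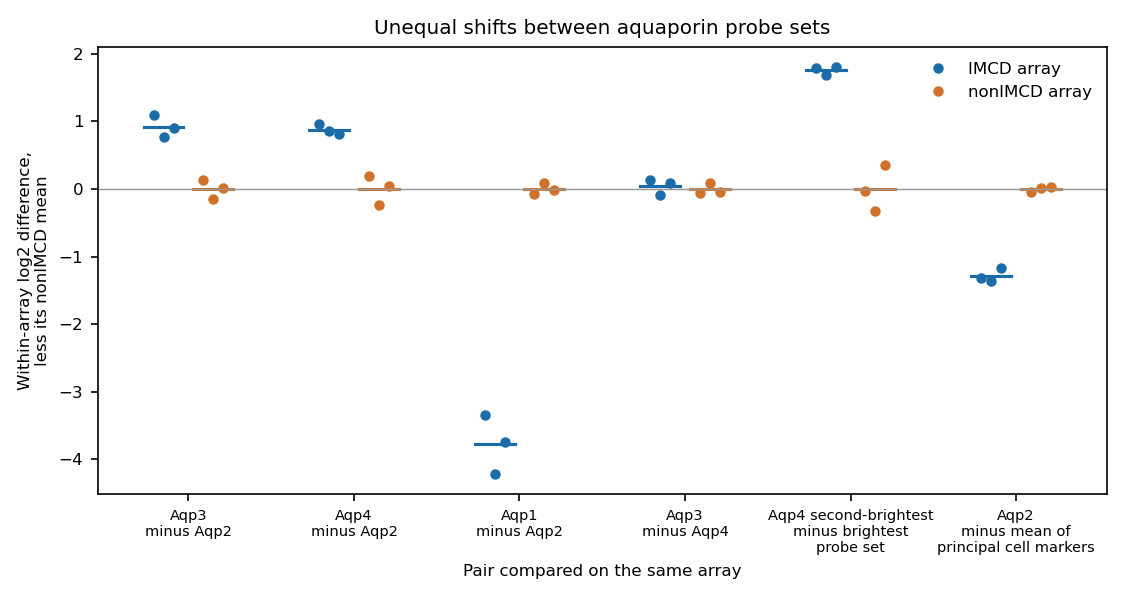
Within-array log2 differences between aquaporin probe sets, or between Aqp2 and the mean of the principal cell markers, on IMCD (blue, left) and nonIMCD (orange, right) arrays, each less its nonIMCD mean so that the nonIMCD bars lie at 0. Relative to Aqp2 the IMCD means of Aqp3 and Aqp4 lie at 0.92 and 0.88 and that of Aqp1 at -3.77, while Aqp2 relative to the markers lies at -1.28.

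The vesicle channel Aqp6 of intercalated cells, which passes anions, and Aqp5, known from glands and lung, were dim. Aqp5 (1368469_at) had 127, 128 and 79.1 on the IMCD arrays and 6.04, 92.7 and 112 on the nonIMCD arrays. Aqp6 (1369298_at) had 71.5, 96.9 and 113 on the IMCD arrays and 10.8, 58.4 and 91.8 on the nonIMCD arrays. Both overlapped, and for both nonIMCD replicate 1 was far under the other 5 arrays.

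The log2 difference was 0.89 ± 0.70 for Aqp5 (SE, limma adjusted p = 0.42) and 0.86 ± 0.53 for Aqp6 (SE, limma adjusted p = 0.307). Without nonIMCD replicate 1 these values fell to 0.09 and 0.27. In RefSeq Aqp2, Aqp5 and Aqp6 follow each other with no other protein-coding gene between them, and Aqp2 is the only bright one of the 3. Of 8 measured intercalated cell markers 4 were higher in IMCD and 4 did not pass, with a sum of 35459 to 42322 in IMCD and 18479 to 25370 in nonIMCD, and none under the limit on all arrays of a fraction.

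The glycerol channels other than Aqp3 were dim too. Aqp7 (1368317_at), known from fat cells and the last part of the proximal tubule, had 61.2, 83.7 and 110 on the IMCD arrays and 106, 128 and 144 on the nonIMCD arrays. IMCD replicate 3 overlapped with nonIMCD replicate 1, and the difference was -0.51 ± 0.22 (SE, limma adjusted p = 0.166). Its neighbour in RefSeq is Aqp3, with no protein-coding gene between them. Of 5 adipocyte markers only Fabp4, which capillaries also express, was lower, and Cidec and Lep were under the limit on all arrays of both fractions.

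Aqp9 (1368621_at), known from liver cells and leukocytes, had 88, 48.9 and 2.93 on the IMCD arrays and 286, 159 and 297 on the nonIMCD arrays. Every IMCD array lay below every nonIMCD array, and 2 of the 3 IMCD arrays lay under the highest negative control. The difference was -2.34 ± 0.65 (SE, limma adjusted p = 0.0539) and did not pass. It passed without IMCD replicate 1 (-2.86, limma adjusted p = 0.0430) or 3 (-1.63, 0.0466), with a pseudocount of 64 (-1.54, 0.0154) and with an intensity trend (0.0135). With a pseudocount of 1 it was -3.20 (0.132), so its size is uncertain. The 13 leukocyte markers, with a median difference of -5.58, summed to 4735 to 5236 in IMCD and 91058 to 103066 in nonIMCD. Lcp1, with 3303, 3365 and 3356 on the IMCD arrays and a difference of -2.12, carried most of the IMCD sum. Aif1, Itgam and S100a8 were under the limit on all IMCD arrays, and the part of leukocytes in the Aqp9 values was not tested.

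The remaining members are Aqp8 and Aqp11. Aqp8 (1368316_at), found in mitochondria and in the gut, had 156, 152 and 30.5 on the IMCD arrays and 180, 156 and 171 on the nonIMCD arrays, with IMCD replicate 3 far under the rest (-0.74 ± 0.53, SE, limma adjusted p = 0.376). Without that array the difference was -0.12. Aqp11 (1384877_at), a channel of the endoplasmic reticulum whose loss gives cystic kidneys in mice, had 164, 140 and 128 on the IMCD arrays and 169, 65.3 and 118 on the nonIMCD arrays. The fractions overlapped, with a difference of 0.33 ± 0.32 (SE, limma adjusted p = 0.508). It was 0.61 without nonIMCD replicate 1 and 0.01 without nonIMCD replicate 2.

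Genes whose pattern over the 6 arrays was most like that of an aquaporin were sought for Aqp1, Aqp2, Aqp3 and Aqp4 among 9522 genes with a mean log2 value of at least 8. Likeness was the root mean square difference of log2 values after each gene was centred on its own mean, which is mainly a matching of the fraction difference. For Aqp1 these were the endothelial claudin Cldn5 (0.0859), the Fc receptor Fcgr3a (0.156) and the semaphorin Sema3g (0.160), with fraction differences of -3.54, -3.51 and -3.67. For Aqp3 they were Laptm4b (0.0619), Bcat1 (0.0640) and Pigq (0.0687), and for Aqp4 the protease Prss23 (0.0562), Swap70 (0.0769) and Adamts8 (0.0825). For Aqp2, which differed little, they were Frmd4b (0.0412), Alg9 (0.0413) and Taf11l1 (0.0442), none of them called.

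Of 38 listed genes that act on Aqp2 transcription, phosphorylation, trafficking or recycling, 36 were measured. Taking each by its brightest probe set, 6 were higher in IMCD, 6 lower and 24 did not pass. Over all 14217 genes 10.0% were higher and 15.7% lower, and the median difference was 0.01 for the list and -0.09 for all genes. The 4 with the largest excess in IMCD were Elf5, Avpr2, Elf3 and Akap11. Avpr2 and Elf5 also belong to the principal cell markers above. The 4 with the largest deficit were Msn, Sipa1, Pde4d and Ptger3.

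Elf3 and Elf5 are Ets transcription factors that in mouse can activate the Aqp2 promoter. Elf3 had 18414, 16523 and 19357 on the IMCD arrays and 5088, 5703 and 5073 on the nonIMCD arrays, a difference of 1.77 ± 0.13 (SE, limma adjusted p = 0.00077). Elf5 had 6931, 7120 and 7072 on the IMCD arrays and 1317, 1000 and 1245 on the nonIMCD arrays, a difference of 2.56 ± 0.15 (SE, limma adjusted p = 0.000412). Neither gene overlapped between fractions. Nfat5, the tonicity factor that acts on Aqp2, went the other way, with 18917, 19226 and 18396 on the IMCD arrays and 39950, 43065 and 41672 on the nonIMCD arrays (-1.14 ± 0.11, SE, limma adjusted p = 0.00181). The cAMP-responsive factor Creb1 did not pass (-0.56).

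In the cAMP signal the vasopressin receptor Avpr2 had 11169, 11118 and 10134 on the IMCD arrays and 2539, 2553 and 2873 on the nonIMCD arrays. The fractions lay apart, with a difference of 2.02 ± 0.12 (SE, limma adjusted p = 0.000493), and its dimmer probe set had 0.67 (limma adjusted p = 0.136). The cyclases Adcy3 and Adcy6 had 0.72 and 0.48 (limma adjusted p = 0.055 and 0.105) by their brightest sets, and the G protein subunit Gnas 0.13. The dimmer Adcy6 set was higher in IMCD, with means of 1627 in IMCD and 757 in nonIMCD (1.08, limma adjusted p = 0.00676). Ptger3, a prostaglandin receptor that lowers cAMP, was lower (-1.90, limma adjusted p = 0.00164). The phosphodiesterase Pde4d had -1.97 (limma adjusted p = 0.00818) on a dim probe set, while its other sets gave -0.78 (0.0502) and 0.35 (0.524). Akap11, an anchor protein for protein kinase A that binds Aqp2, had 15874, 15606 and 19161 on the IMCD arrays and 4961, 4052 and 6428 on the nonIMCD arrays, a difference of 1.73 ± 0.21 (SE, limma adjusted p = 0.00338). The other 6 measured kinase and anchor genes did not pass, among them the catalytic subunit Prkaca (0.30).

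Among the genes of vesicle fusion and recycling most did not pass. Of 7 SNARE genes and SNARE partners, only the Munc18 protein Stxbp2 was called on its brightest set (0.68 ± 0.12, SE, limma adjusted p = 0.012). Vamp2, the vesicle SNARE found on Aqp2 vesicles, had -0.32 and Snap23 had -0.56 (limma adjusted p = 0.195 and 0.0624). The dimmer Snap23 set was lower, with means of 1111 in IMCD and 2224 in nonIMCD (-0.996, limma adjusted p = 0.00436). Rab11a, of the recycling endosome, was higher by 0.71 (limma adjusted p = 0.00962), and its motor partner Myo5b was lower (-0.52, limma adjusted p = 0.0332). Rab7a, of late endosomes, had 0.24 on its brightest set and was higher by 0.77 on its dimmer set (limma adjusted p = 0.189 and 0.0268). Stxbp2, Rab11a, Nfat5 and Myo5b were the 4 remaining called genes and are named for that, after their values were seen.

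Moesin (Msn), a linker of actin to membranes, and Sipa1, a Rap regulator that binds Aqp2, had the largest deficits. Msn had 1474, 1261 and 1264 on the IMCD arrays and 14181, 15090 and 12527 on the nonIMCD arrays, a difference of -3.37 ± 0.14 (SE, limma adjusted p = 0.000228). Sipa1 differed by -2.75. Ezrin (Ezr), the related linker, did not pass (-0.05). Leukocytes and endothelium are also known to express Msn. The part of these cells in the Msn and Sipa1 differences was not tested.

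**Figure D4:**
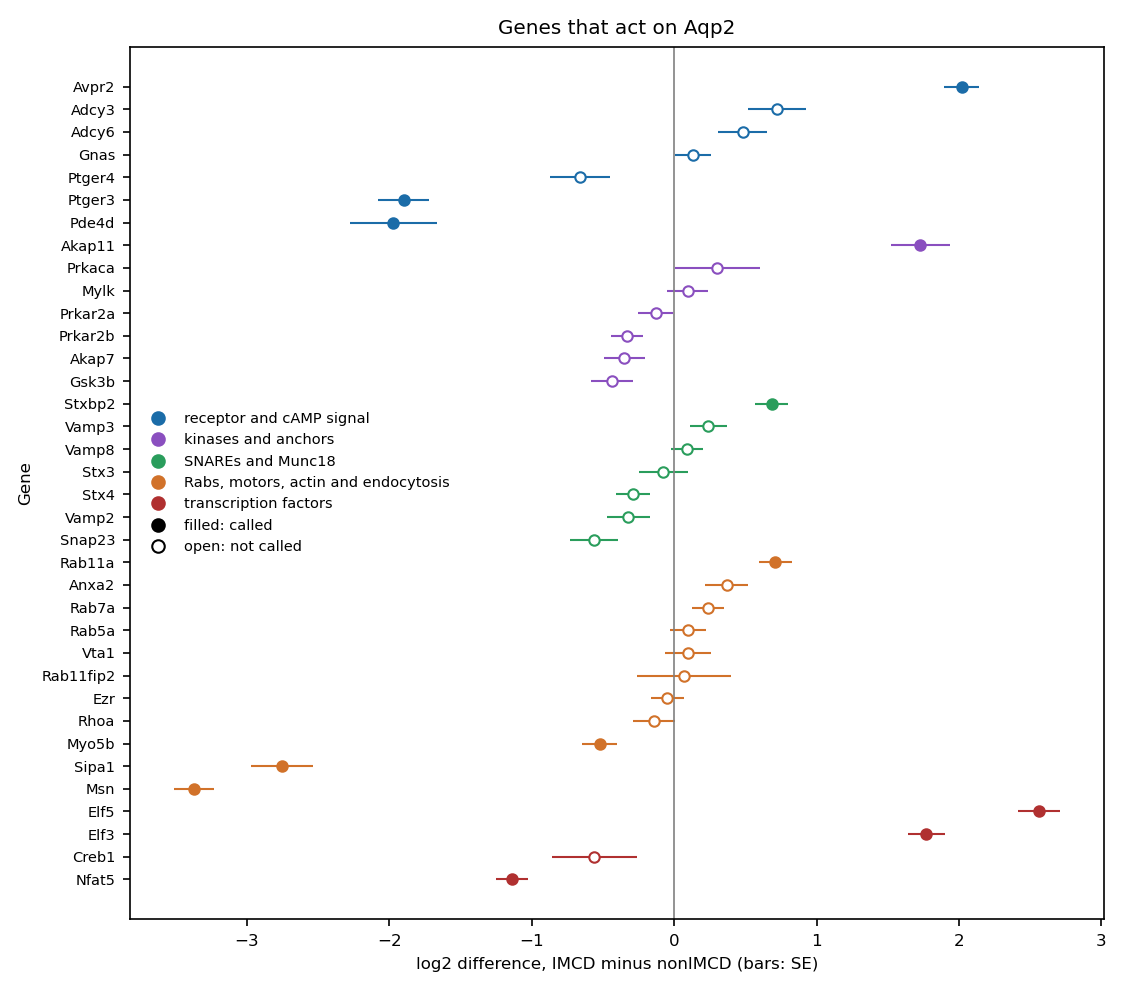
The log2 difference (IMCD minus nonIMCD, bars SE) of the 36 measured genes that act on Aqp2, grouped by role, each by its brightest probe set, with filled points where limma's adjusted p was under 0.05. The called genes lie on both sides, from -3.37 for Msn to 2.56 for Elf5, and 6 of the 7 SNARE genes and partners are open.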

How the data were processed

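RNA of 6 rat samples, 3 of each fraction and per the labels from 3 isolations, was measured on Affymetrix rat expression arrays. The deposited values are linear intensities, 1 per probe set and array, which the authors had scaled: after dropping 2% of values from either tail, every array averaged 1000.3 to 1000.4. No label names the software used. The 57 control probe sets were left out and 31042 tested. Symbols came from the platform annotation through gene identifiers of RefSeq (GRCr8), and 20826 tested probe sets had 1 symbol. Values were analysed as log2(intensity + 16), which understates differences of dim probe sets, with no filter on low values.

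The 3 IMCD and 3 nonIMCD arrays were compared with limma 3.58.1 (R 4.3.3, lmFit and eBayes, two-sided, no covariate), with Benjamini-Hochberg adjustment over all tested probe sets and a threshold of 0.05. The fit was tested on simulated arrays with known shifts. Single within-array differences had exact permutation tests. A gene with several probe sets was represented by the brightest. Every aquaporin probe set is named. From the Aqp2 regulation list the 4 largest called differences in each direction are named, and for bright aquaporins the 3 most alike genes, excluding LOC and RGD symbols. Members and lists were chosen with earlier results of these data known. The alternatives were the pseudocount, median centring, quantile normalization, a filter on dim probe sets, an intensity trend, a replicate block and leaving out each array. For within-array differences, the mean of a gene's probe sets was also tried. The number of arrays limits the precision.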

Additional observations from a re-analysis of the deposited data

How the results depend on the processing

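The Aqp1, Aqp3 and both brighter Aqp4 probe sets kept their direction and calls under every alternative run. No aquaporin difference changed sign. Under median centring and under quantile normalization 5 aquaporin probe sets were higher, Aqp2 and the third Aqp4 set being added, against 3 in the deposited scaling, and 2 stayed lower. Median centring moved the median of all probe sets by over 0.1, to 0.19, and gave 5389 probe sets higher and 2652 lower, against 2663 and 4163. The Aqp2 regulation list had 11 genes higher under median centring, 10 higher and 11 lower with an intensity trend, and 10 lower with dim probe sets left out, where fewer were tested, against 6 and 6. The 8 genes with the largest differences there kept their calls. Leaving out 1 array gave 1537 to 2248 probe sets higher and 2647 to 3221 lower. With nonIMCD replicate 1 left out these were 1666 and 2647, and without IMCD replicate 1, 2 or 3 the higher ones were 1537, 1717 and 1725. Fewer arrays were fitted there, and otherwise the cause was not tested.

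With the replicate number as a block 3 aquaporin probe sets were higher and 2 lower, and 1831 and 2993 of all probe sets. The numbers are not shown to pair the arrays: deviations of same-numbered arrays correlated at 0.035 to 0.061, although each array correlated best with its own number. No aquaporin call changed. Aqp3 minus Aqp4 changed sign under quantile normalization (-0.0039) and with the mean of a gene's probe sets (-0.43), and ran from -0.0051 to 0.11 with 1 array left out. Aqp11 minus Aqp2 was -0.054 with a pseudocount of 64 and ran from -0.24 to 0.41 with 1 array left out. The dim filter removed Aqp5, Aqp6, Aqp7 and Aqp9, which have no value there.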
